A study of Homo sapiens with 10 samples.

Results

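The genes described here are 7 survival genes of B cells, the TCL1 pair TCL1A and TCL1B, the kinases AKT1 and AKT2 and the kinases PIM1, PIM2 and PIM3, among 19775 genes with a probe set of a single symbol on the arrays. They were selected by name as the members of these families that the arrays measured, and they were chosen with results of these arrays known. That TCL1A and TCL1B were lower in resistant HBL2 cells and that PIM2 was higher in resistant JEKO cells were among those results. These differences, and the comparisons between the lines built on them, are therefore given as values with standard errors and without p-values. All 7 genes passed the filter on low values, which left 14529 genes for testing.

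TCL1 proteins bind the AKT kinases and promote their activation, and TCL1A is made by B cells at earlier stages and is normally switched off when a B cell becomes a plasma cell. AKT kinases act downstream of phosphoinositide 3-kinase (PI3K), and they promote survival, growth and protein synthesis by phosphorylating FOXO factors, GSK3 kinases, BAD and regulators of mTORC1. PIM kinases need no activating phosphorylation by an upstream kinase, so their amount is set mainly by transcription, often through JAK and STAT proteins, and by degradation in the proteasome; they share substrates such as BAD and EIF4B with AKT.

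The study compared bortezomib-resistant cells, labelled BR, with matched cells labelled PT in HBL2 and JEKO. Both are established lines of mantle cell lymphoma, a cancer of mature B lymphocytes, and bortezomib blocks the proteasome. There were 3 HBL2 BR, 3 HBL2 PT, 2 JEKO BR and 2 JEKO PT arrays, each hybridised with RNA of cells in logarithmic growth. The PT cells are taken as the parental cells of each line from knowledge of the study, because the labels give the letters alone. The labels do not say whether the BR cells were clones, whether drug was present at harvest, or whether the replicates were separate cultures, so the p-values measure the spread of these samples alone, and that spread may be technical.

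Levels are deposited scores, set by where a probe set ranks on the array. They ran from 0 to 4.99 with a median of 0.73 on every array. A log scale of unstated base is likely, so changes are differences in score and not folds. Array correlations over probe sets were 0.932 to 0.958 within a group and 0.892 to 0.913 between the lines. The markers CCND1 and SOX11 of mantle cell lymphoma were at or above the array median in all groups, as were the 5 measured B cell markers. Beta-actin probe sets at the 5' minus the 3' end of the transcript, a sign of RNA quality, gave -1.04 to -0.694 in HBL2 BR, -1.25 to -0.575 in HBL2 PT, -1.01 and -0.758 in JEKO BR and -0.821 and -0.705 in JEKO PT. With RNA of whole cultures, fewer cells expressing a gene and less RNA per cell cannot be told apart.

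The promoters of the 4 genes that differed most between BR and PT cells are shown because TCL1A and TCL1B were lower together and PIM1 and PIM2 were higher together. They are the 300 bases from 250 before to 50 after each annotated start, from RefSeq on GRCh38.p14, written 5' to 3' on the strand of the gene. Capitals mark matches, on either strand, to a TATA box (TATAAA), an octamer (ATGCAAAT), a GC box (GGGCGG) or a CCAAT box (CCAAT). No 2 of these motifs overlap at the capitals shown. TCL1A lies on the minus strand at chr14:95714076-95714375, TCL1B on the plus strand at chr14:95686176-95686475, PIM1 on the plus strand at chr6:37169902-37170201 and PIM2 on the minus strand at chrX:48918975-48919274.
TCL1A: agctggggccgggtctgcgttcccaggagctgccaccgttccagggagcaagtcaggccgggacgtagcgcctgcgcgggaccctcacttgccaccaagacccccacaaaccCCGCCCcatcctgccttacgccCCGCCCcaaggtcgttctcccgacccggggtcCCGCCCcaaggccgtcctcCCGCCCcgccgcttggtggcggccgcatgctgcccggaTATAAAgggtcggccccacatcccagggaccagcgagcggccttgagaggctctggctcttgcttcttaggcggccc
TCL1B: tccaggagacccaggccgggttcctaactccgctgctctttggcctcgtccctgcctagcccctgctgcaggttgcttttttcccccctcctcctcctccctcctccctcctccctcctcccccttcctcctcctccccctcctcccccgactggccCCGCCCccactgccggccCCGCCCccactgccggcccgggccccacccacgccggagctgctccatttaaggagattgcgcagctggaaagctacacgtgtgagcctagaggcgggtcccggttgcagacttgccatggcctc
PIM1: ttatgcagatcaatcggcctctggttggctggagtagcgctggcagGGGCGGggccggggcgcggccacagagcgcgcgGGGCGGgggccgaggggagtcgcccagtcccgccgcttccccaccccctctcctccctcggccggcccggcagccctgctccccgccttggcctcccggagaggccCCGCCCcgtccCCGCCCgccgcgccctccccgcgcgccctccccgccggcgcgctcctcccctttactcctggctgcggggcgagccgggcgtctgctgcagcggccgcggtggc
PIM2: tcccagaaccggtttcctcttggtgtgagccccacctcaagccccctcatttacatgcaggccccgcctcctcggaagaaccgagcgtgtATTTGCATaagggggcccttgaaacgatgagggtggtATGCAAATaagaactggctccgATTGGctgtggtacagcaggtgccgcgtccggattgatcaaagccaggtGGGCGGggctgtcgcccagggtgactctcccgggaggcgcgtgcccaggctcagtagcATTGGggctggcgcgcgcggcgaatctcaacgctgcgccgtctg

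The TCL1A window held a TATA box from base -27 to base -22 before the start and 4 GC boxes. The TCL1B window held 2 GC boxes, the PIM1 window 4, and the PIM2 window 1. The PIM2 window alone among these held octamers, the motif that OCT factors of B cells bind, from -160 to -153 on the minus strand and from -123 to -116 on the plus strand, and it also held 2 CCAAT boxes. Of 35116 RefSeq promoters of this length, 11.5% held the TATA box, 1.77% the octamer, 45.0% the GC box and 34.6% the CCAAT box. The STAT-type motif TTCNNNGAA was found in 7.66% of promoters and its letters were not in these 4 windows. The bases were 70.7% G or C in the TCL1A window, 68.7% in TCL1B, 79.7% in PIM1 and 62.3% in PIM2. These matches describe the letters of the windows; binding was not measured.

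In resistant cells of both lines TCL1A and TCL1B stood below, and PIM1 and PIM2 above, the matched PT cells on every array. PIM3 and the main probe set of AKT2 overlapped between BR and PT in both lines. In HBL2, 2 of the 7 genes were called higher at an adjusted p under 0.05 (limma, Benjamini-Hochberg over all 14529 genes), against 4.91% of all genes, and 2 were called lower, against 6.86%. In JEKO 2 were called higher, against 2.56% of all genes, and 1 was called lower, against 1.72%. The arrays of BR and PT did not overlap for 4 of the 7 genes in HBL2, against 27.3% of all genes, and for 5 in JEKO, where 2 arrays face 2, against 50.8% of all genes. Because results in these contrasts were known when the genes were chosen, nothing is read from these shares. The median change of the 7 genes was -0.084 in HBL2 and -0.061 in JEKO, beside -0.00099 and 0.012 over all genes.

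**Figure D1:**
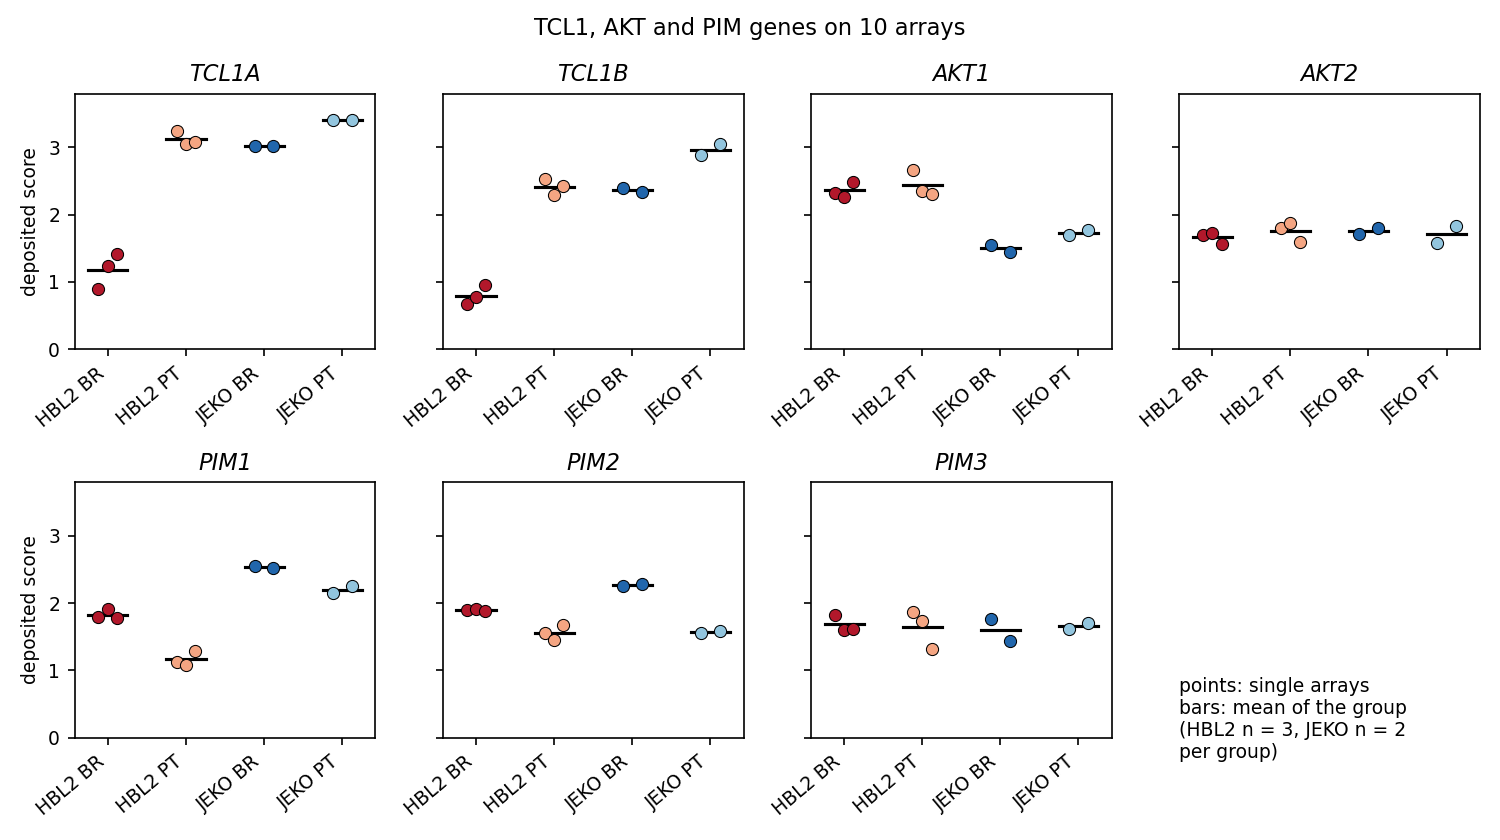
Deposited score (vertical axis, no unit) of the 7 genes on each of the 10 arrays, one panel a gene, with points for arrays and bars for group means (n = 3 for each HBL2 group and 2 for each JEKO group). TCL1A and TCL1B are near 1 in HBL2 BR alone, PIM1 and PIM2 are higher in BR than in PT of both lines, and AKT1 is higher in HBL2 than in JEKO.

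TCL1A, the AKT coactivator, had scores of 0.90, 1.24 and 1.41 on the HBL2 BR arrays, against 3.25, 3.06 and 3.07 on the HBL2 PT arrays. The lowest PT array lay 1.65 above the highest BR array, and the mean rank of the gene was at the 74.1 percentile of the BR arrays against the 99.4 percentile of the PT arrays. The change was -1.94 ± 0.095 (SE). TCL1A remained at or above the array median on all 10 arrays, HBL2 BR included. In JEKO it had 3.02 and 3.02 in BR and 3.40 and 3.40 in PT, and the groups did not overlap. The JEKO change was -0.39 ± 0.12 (SE), which missed the threshold in limma (adjusted p = 0.078). That side of the threshold rested on single arrays, since the adjusted p was 0.018 without HBL2 BR replicate 1 and 0.039 without HBL2 BR replicate 3, which enter through the shared estimate of spread. A second TCL1A probe set gave -2.00 in HBL2 and -0.42 in JEKO.

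TCL1B, the neighbouring relative of TCL1A, had 0.67, 0.77 and 0.96 in HBL2 BR, against 2.52, 2.29 and 2.42 in HBL2 PT. All BR arrays were below all PT arrays, and the change was -1.61 ± 0.079 (SE). The JEKO values were 2.40 and 2.34 in BR, against 2.88 and 3.05 in PT. TCL1B fell in JEKO by 0.59 ± 0.097 (SE, adjusted p = 0.00245, limma), in both arrays of each group. The adjusted p was 0.054 without JEKO BR replicate 2. In HBL2 BR the mean of TCL1B was at the 54.5 percentile of the array, near the middle of all probe sets, against the 97.8 percentile in HBL2 PT, the 97.6 percentile in JEKO BR and the 99.2 percentile in JEKO PT. Its single probe set is of a type that can also bind related transcripts.

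The order of the groups was the same for both TCL1 genes. By group mean it ran JEKO PT, HBL2 PT, JEKO BR and HBL2 BR. Neighbouring groups in that order did not overlap for the main probe set of TCL1A. HBL2 PT overlapped with JEKO BR for the second TCL1A probe set (lowest 3.042 against highest 3.076) and for TCL1B. Both lines were lower in BR. The HBL2 change minus the JEKO change was -1.56 ± 0.15 (SE) for TCL1A and -1.02 ± 0.13 for TCL1B. These values are built on the HBL2 falls known when the genes were chosen and are a description. In PT cells the lines were closer. HBL2 PT minus JEKO PT was -0.28 ± 0.11 for TCL1A (SE, adjusted p = 0.073, limma), which did not pass, and -0.55 ± 0.088 for TCL1B (adjusted p = 2.78e-04), which did. The TCL1A value passed in 6 of the 20 alternatives run for it. It did so without HBL2 PT replicate 1 (0.041), HBL2 BR replicate 1 (0.015) or HBL2 BR replicate 3 (0.035). It also passed with array weights (0.023) and with the beta-actin values as a covariate (0.012). The second TCL1A probe set gave -0.35 (adjusted p = 0.043, limma on all kept probe sets). HBL2 BR minus JEKO BR was -1.84 for TCL1A and -1.57 for TCL1B.

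The TCL1 genes lie side by side on chromosome 14, TCL1B at 95686426 to 95692628 and TCL1A at 95709947 to 95714125 (GRCh38.p14), with TCL6, a long noncoding RNA gene, beside TCL1B. TCL6 had 0.43, 0.58 and 0.69 in HBL2 BR, against 0.92, 0.85 and 0.78 in HBL2 PT. The groups did not overlap, and TCL6 fell by 0.28 ± 0.074 (SE, adjusted p = 0.0197, limma). That call was lost without HBL2 PT replicates 1 or 2 (0.065 and 0.057) or HBL2 BR replicates 1 or 2 (0.10 and 0.054). In JEKO it had 1.28 and 1.28 in BR, against 1.59 and 1.64 in PT, with a change of -0.33 ± 0.091 (adjusted p = 0.0505). The JEKO value passed without HBL2 PT replicates 1 or 3 (0.046 and 0.033) or HBL2 BR replicates 1 or 3 (0.039 and 0.036). The other 2 TCL6 probe sets that passed the filter gave -0.19 and 0.072 in HBL2 and -0.16 and -0.16 in JEKO, and none of these passed. As the median of its probe sets TCL6 changed by -0.13 in HBL2 (adjusted p = 0.37).

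The 10 genes nearest to the TCL1 pair that passed the filter were read, 5 on each side. Among them TCL6 was the only one called lower in HBL2. C14orf132 (0.34, adjusted p = 0.0016, limma) and PAPOLA-DT (0.43, adjusted p = 0.026) were called higher. The background shares are 6.86% lower and 4.91% higher. The PAPOLA-DT call was lost without HBL2 PT replicate 2 or any 1 of the HBL2 BR replicates (0.051 to 0.12), and its value was 0.26 without HBL2 PT replicate 2 and 0.66 with array weights. The changes of the 10 neighbours ran from -0.28 to 0.43 in HBL2, where 7 had an unadjusted p under 0.05 in limma. Of these 7, all except TCL6 were higher in BR. In JEKO the changes ran from -0.33 to 0.15, where 0 passed in limma and 2 had an unadjusted p under 0.05. MTCP1, another member of the TCL1 family, which lies elsewhere in the genome, changed by 0.0012 in HBL2 (adjusted p = 0.997) and 0.0017 in JEKO (adjusted p = 0.997). Its scores were 0.79, 0.79 and 0.86 in HBL2 BR and 0.78, 0.68 and 0.97 in HBL2 PT.

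**Figure D2:**
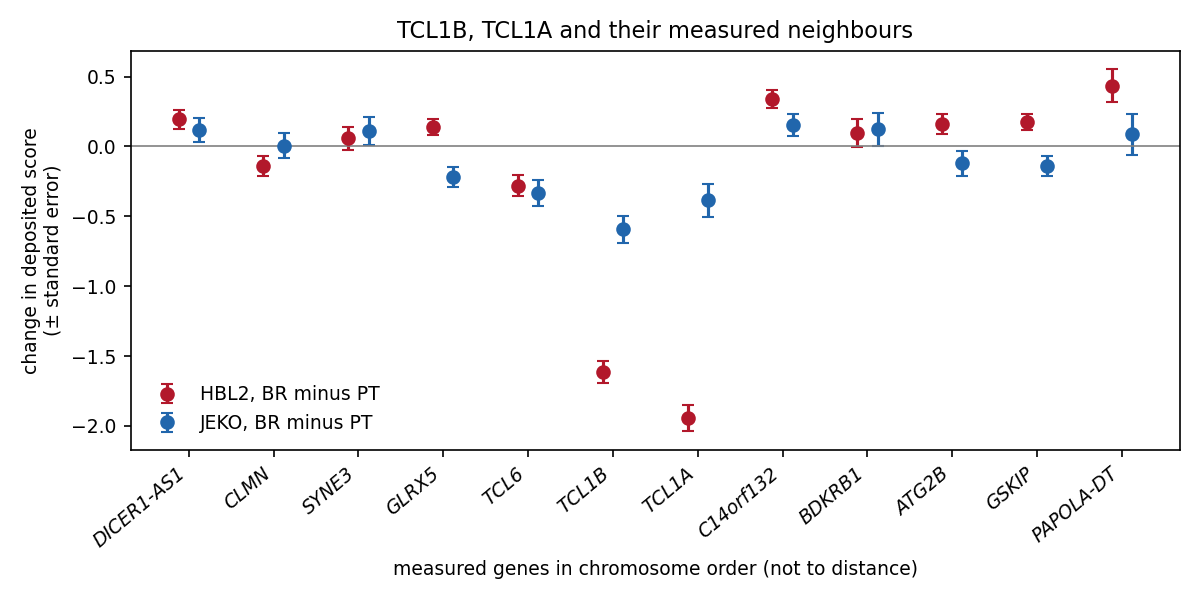
Change in deposited score, BR minus PT, with its standard error (vertical axis, no unit) for TCL1B, TCL1A and the 5 nearest tested genes on each side, in chromosome order and not to distance. TCL1A (-1.94) and TCL1B (-1.61) in HBL2 lie below all 10 neighbours, whose changes run from -0.28 to 0.43.

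The AKT genes, the kinases that TCL1 proteins bind, showed no called change between BR and PT. AKT1 had 2.33, 2.27 and 2.48 in HBL2 BR, against 2.67, 2.36 and 2.31 in HBL2 PT, and the groups overlapped. Its change was -0.084 ± 0.085 (SE, adjusted p = 0.62, limma), and the sign turned to 0.028 without HBL2 PT replicate 1. In JEKO it had 1.56 and 1.45 in BR, against 1.69 and 1.77 in PT. These arrays did not overlap, but the change of -0.23 ± 0.10 did not pass (adjusted p = 0.26). AKT1 differed between the lines in both states. HBL2 minus JEKO was 0.86 ± 0.095 in BR cells (adjusted p = 5.00e-06) and 0.71 ± 0.095 in PT cells (adjusted p = 5.15e-05), with every HBL2 array above every JEKO array. The HBL2 change minus the JEKO change was 0.14 ± 0.13 (adjusted p = 0.60).

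AKT2 had 1.69, 1.73 and 1.57 in HBL2 BR, against 1.81, 1.88 and 1.59 in HBL2 PT, and 1.71 and 1.80 in JEKO BR, against 1.58 and 1.84 in JEKO PT. The 4 groups overlapped with their neighbours in order of mean. The changes were -0.094 ± 0.083 in HBL2 (SE, adjusted p = 0.56, limma) and 0.048 ± 0.10 in JEKO (adjusted p = 0.87). The values above are of the main AKT2 probe set. AKT2 has 7 probe sets, more than any other of these genes. Their changes ran from -0.094 to 0.10 in HBL2 and from -0.23 to 0.099 in JEKO with none called. Some of the other AKT2 probe sets did not overlap between BR and PT in HBL2 or in JEKO. HBL2 minus JEKO was -0.091 in BR cells (adjusted p = 0.52) and 0.051 in PT cells (adjusted p = 0.76).

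PIM1, the first of the PIM kinases, rose in BR cells of both lines. It had 1.80, 1.91 and 1.77 in HBL2 BR, against 1.13, 1.08 and 1.30 in HBL2 PT, and the lowest BR array was 0.48 above the highest PT array. The HBL2 change was 0.66 ± 0.067 (SE, adjusted p = 4.93e-06, limma). In JEKO it had 2.55 and 2.52 in BR, against 2.15 and 2.25 in PT, and both BR arrays were above both PT arrays. The JEKO change was 0.34 ± 0.082 (adjusted p = 0.029). The JEKO call was lost without any 1 of the JEKO arrays, with adjusted p of 0.15 without BR replicate 1, 0.17 without BR replicate 2, 0.23 without PT replicate 1 and 0.075 without PT replicate 2. In order of mean the groups ran JEKO BR, JEKO PT, HBL2 BR and HBL2 PT, and none of these neighbours overlapped.

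PIM1 also differed between the lines in both states. HBL2 minus JEKO was -0.71 ± 0.075 in BR cells (SE, adjusted p = 3.12e-06, limma) and -1.03 ± 0.075 in PT cells (adjusted p = 8.32e-08). Resistant HBL2 cells thus had a lower PIM1 score than JEKO PT cells. The HBL2 change exceeded the JEKO change by 0.32 ± 0.11, which did not pass (adjusted p = 0.075). It passed without HBL2 PT replicate 3 (adjusted p = 0.015), with array weights (0.0084), on percentile ranks (0.0096) and on normal scores of the ranks (0.034).

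PIM2, the relative of PIM1 that lymphoid cells express strongly, had 1.90, 1.91 and 1.89 in HBL2 BR, against 1.56, 1.46 and 1.68 in HBL2 PT. The groups did not overlap, and the SD of the 3 BR arrays was 0.0083. PIM2 rose in HBL2 by 0.34 ± 0.062 (SE, adjusted p = 0.00155, limma). In JEKO it had 2.25 and 2.29 in BR, against 1.55 and 1.58 in PT, a gap of 0.67 between the groups and a change of 0.71 ± 0.076. The PT cells of the lines had nearly the same level, with HBL2 PT minus JEKO PT at -0.0039 ± 0.069 (adjusted p = 0.98), and these 2 groups overlapped. In BR cells PIM2 was lower in HBL2 than in JEKO, with a difference of -0.37 ± 0.069. The HBL2 change minus the JEKO change was also -0.37, with a standard error of 0.098.

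PIM3 had 1.83, 1.60 and 1.62 in HBL2 BR, against 1.87, 1.74 and 1.32 in HBL2 PT, and 1.77 and 1.43 in JEKO BR, against 1.62 and 1.71 in JEKO PT. The groups overlapped in both lines. The changes were 0.041 ± 0.12 in HBL2 (SE, adjusted p = 0.88, limma) and -0.061 ± 0.14 in JEKO (adjusted p = 0.88). HBL2 minus JEKO was 0.083 in BR cells (adjusted p = 0.70) and -0.019 in PT cells (adjusted p = 0.94). The signs of these small values turned when 1 array was left out, as the ranges for HBL2 (-0.12 to 0.15) and JEKO (-0.23 to 0.11) show.

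**Figure D3:**
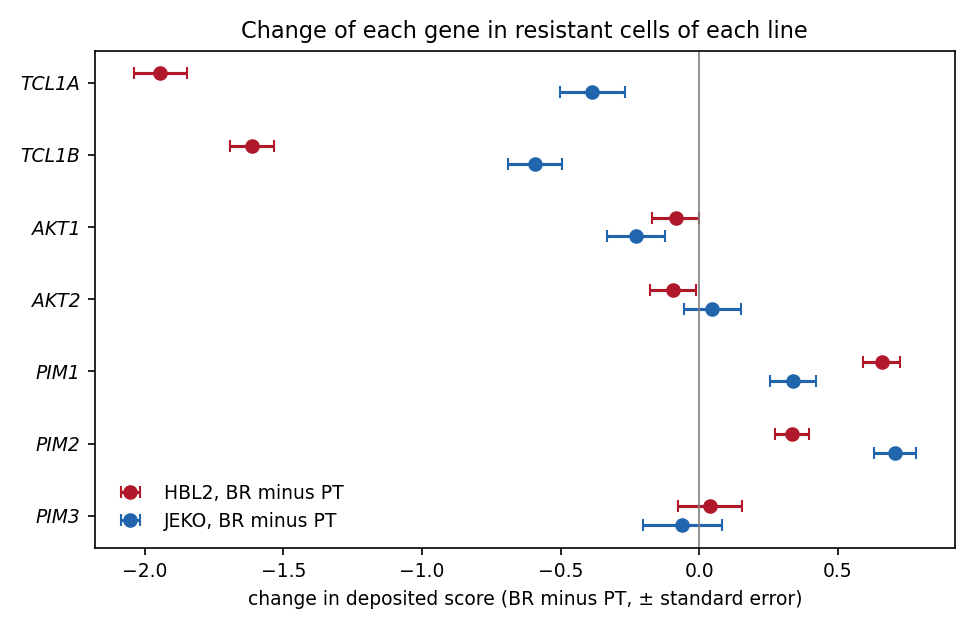
Change in deposited score, BR minus PT, with its standard error (horizontal axis, no unit) for each gene in HBL2 and in JEKO. TCL1A and TCL1B lie left of 0 and PIM1 and PIM2 right of 0 in both lines, and HBL2 has the larger shift for TCL1A, TCL1B and PIM1 and JEKO for PIM2.

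Over the comparisons between the lines, 3 of the 7 genes were called for HBL2 change minus JEKO change (TCL1A, TCL1B and PIM2), against 8.71% of all genes, and all 3 differences were negative. These 3 differences follow from results known when the genes were chosen, so nothing is read from that count. In PT cells 3 were called, AKT1 higher and TCL1B and PIM1 lower in HBL2, against 23.1% of all genes. In BR cells 5 were called, AKT1 higher and TCL1A, TCL1B, PIM1 and PIM2 lower in HBL2, against 28.1% of all genes, a count from which nothing is read for the same reason. The PT comparison and the BR comparison share no arrays with each other, but both share arrays with the BR minus PT changes. The PIM2 call for the HBL2 change minus the JEKO change held in 13 of 21 alternatives. It was lost without the trend of variance on mean score, on percentile ranks, and without HBL2 BR replicate 1 or replicate 2. It was also lost without any 1 of the JEKO arrays, a fit that leaves 1 array in a JEKO group. The PIM2 values for this difference were then -0.39 to -0.35.

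For TCL1A the 5 genes with the most similar pattern over the 4 group means were TCL1B, AFF3, FADS3, CD180 and EVL. Likeness was the root mean square difference of the centred group means over 10 arrays, which was 0.139 for TCL1B, 0.26 for AFF3, 0.336 for FADS3, 0.356 for CD180 and 0.386 for EVL, beside a median of 0.884 over all genes. By this measure TCL1B was the nearest gene to TCL1A among all those tested. Both genes were chosen with their HBL2 falls known, and these falls weigh heavily in the measure. The HBL2 changes of AFF3 (-1.36), FADS3 (-1.16), CD180 (-1.46), a Toll-like receptor relative of B cells, and EVL (-1.05) were large and negative. Their JEKO changes were -0.016, 0.15, 0.13 and 0.13, beside -0.39 for TCL1A and -0.59 for TCL1B. A search by likeness to TCL1A favours genes that fall in HBL2 BR, so the ranking and these values are a description.

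The 5 genes most like PIM2 were SYNGR3 (0.0522), EPB41L4B (0.0756), RHOBTB1 (0.0775), TPD52L1 (0.0851) and LIG4 (0.0907), against a median of 0.308. SYNGR3 changed by 0.35 in HBL2 and 0.56 in JEKO. LIG4, the DNA ligase of end joining, changed by 0.27 in HBL2 and 0.46 in JEKO. These genes were found by their likeness over these arrays, so their values are a description.

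The genes around AKT and PIM were read in 8 lists written with earlier results known. Counting each gene once, 100 of 108 listed genes were tested. In HBL2 BR 10 rose and 13 fell, 23.0% in all, against 11.8% of all genes. In JEKO BR 8 rose and 1 fell, 9.0%, against 4.28% of all genes. For the counts of single lists below, the shares of all genes are 4.91% higher and 6.86% lower in HBL2. In JEKO they are 2.56% higher and 1.72% lower. Because the lists were written with earlier results known, nothing is read from any of these counts. The median change over these genes was -0.0077 in HBL2 and 0.078 in JEKO, beside -0.00099 and 0.012 over all genes. When a gene was read as the median of all its probe sets, the HBL2 calls of TCL6 (-0.13), SYK (-0.12), INPP5D (-0.23), PPP2R5C (0.071), INPP4A (-0.091), CCNG2 (-0.21), IL7R (0.14), SOCS2 (-0.15) and CDC25A (0.15) were lost. So were the JEKO calls of THEM4 (0.22), MDM2 (0.020), CITED2 (0.19), JAK3 (0.017) and NFATC1 (0.15). PIK3CD (-0.34), CREB1 (-0.22), KLF2 (-0.37) and RPS6 (0.23) kept their HBL2 calls at smaller values.

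Upstream of AKT, 2 of 14 tested PI3K subunits and activating kinases fell in HBL2, against 6.86% of all genes, and none rose. They were PIK3CD, the PI3K catalytic subunit of leukocytes (-0.52 ± 0.088, SE, adjusted p = 7.61e-04, limma), and SYK, the kinase that relays the B cell receptor signal (-0.28 ± 0.062, adjusted p = 0.0065). In JEKO 0 of the 14 passed in limma and 4 had an unadjusted p under 0.05, with changes of -0.24 to 0.28. Among 14 brakes on the pathway in HBL2, 2 rose and 2 fell. INPP4B, a lipid phosphatase, rose by 0.48 and PPP2R5C, a subunit of protein phosphatase 2A, by 0.22. INPP4B scored 0.89 to 1.085 in HBL2 BR, and at most 0.56 in HBL2 PT, 0.59 in JEKO BR and 0.47 in JEKO PT. The array median was 0.73, so INPP4B passed the filter through the HBL2 BR arrays alone. INPP5D, the lipid phosphatase SHIP of blood cells, fell by 0.38 (adjusted p = 3.04e-04) and INPP4A fell by 0.22. Of the calls in this paragraph so far, PIK3CD, SYK and INPP5D held without any 1 array. INPP4B lost its call without HBL2 PT replicate 2 (0.051) or HBL2 BR replicate 3 (0.072). INPP4A lost it without HBL2 PT replicate 2 or HBL2 BR replicates 1 or 2 (0.067 to 0.13), and PPP2R5C without HBL2 PT replicates 1 or 2 or any 1 HBL2 BR replicate (0.066 to 0.12). In JEKO PPP2R1B, a scaffold of protein phosphatase 2A, fell by 0.37 and THEM4, an AKT-binding protein, rose by 0.34. PPP2R1B lost its call without JEKO PT replicate 1 (0.098) or BR replicate 2 (0.16), and turned to 0.21 with another of its probe sets when shared-transcript probe sets were left out. THEM4 lost it without any 1 JEKO array (0.058 to 0.21).

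Downstream of AKT, 1 of 14 substrates and effectors fell in HBL2, against 6.86% of all genes. It was the transcription factor CREB1 (-0.47 ± 0.071, SE, adjusted p = 2.60e-04, limma), and its call held without any 1 array. In JEKO 1 rose, the p53 regulator MDM2 (0.28, adjusted p = 0.039), which lost its call without any 1 JEKO array (0.12 to 0.26), without HBL2 PT replicate 2 (0.056) or without HBL2 BR replicates 1 or 2 (0.051 and 0.055). Of 16 FOXO target genes, 2 fell and 2 rose in HBL2, against 6.86% and 4.91% of all genes. KLF2, a quiescence and homing factor of lymphocytes, fell by 0.66 ± 0.065 (adjusted p = 3.34e-06), and CCNG2, a cyclin that slows the cell cycle, fell by 0.50 (adjusted p = 1.68e-04). Both held without any 1 array, but the KLF2 value was -0.081 with its other probe set. IL7R, a cytokine receptor, rose by 0.33 and IRS2, an insulin receptor adaptor, by 0.24. IRS2 lost its call without HBL2 PT replicates 1 or 2 or HBL2 BR replicates 1 or 2 (0.071 to 0.11). With array weights IL7R was 0.21 (adjusted p = 0.10). IL7R lost its call without HBL2 PT replicates 1 or 3, HBL2 BR replicates 1 or 3 or any 1 JEKO array (0.052 to 0.14). In JEKO CITED2, a transcriptional coregulator, rose by 0.32 (adjusted p = 0.031), lost without any 1 JEKO array (0.088 to 0.25), and KLF2 was -0.28 (adjusted p = 0.059).

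Of 13 tested genes of mTORC1 and cap-dependent translation, RPS6, a ribosomal protein, rose by 0.35 in HBL2, EIF4B, a translation factor that both AKT and PIM pathways reach, rose by 0.21, and EIF4G1, the scaffold of the cap-binding complex, fell by 0.23. Each passed narrowly in limma (adjusted p 0.038, 0.021 and 0.040). EIF4B lost its call without HBL2 PT replicate 2 or any 1 HBL2 BR replicate (0.056 to 0.085). RPS6 lost it without HBL2 PT replicate 3, HBL2 BR replicates 1 or 2 or a JEKO BR array (0.057 to 0.17), and its value was 0.19 without HBL2 PT replicate 3. When probe sets of the _x_at and _s_at types were left out, another RPS6 probe set gave 1.88. EIF4G1 lost it when any 1 array except HBL2 PT replicate 3 was left out (0.056 to 0.14), with a value of -0.15 without HBL2 PT replicate 1. In JEKO the mTORC1 inhibitor DDIT4 rose by 0.39 ± 0.081 (SE, adjusted p = 0.013), a call lost without JEKO PT replicate 1 or either JEKO BR array (0.062 to 0.18).

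Upstream of PIM, 2 of 18 JAK-STAT genes rose and 3 fell in HBL2, against 4.91% and 6.86% of all genes. The receptors IL21R (0.40 ± 0.062, SE, adjusted p = 3.20e-04, limma) and IL6ST (0.38 ± 0.071, adjusted p = 0.0019) rose. SOCS2, a feedback inhibitor, fell by 0.43 (adjusted p = 4.09e-04), and PTPN6, a phosphatase that dampens receptor signals, fell by 0.35 (adjusted p = 0.0012). These 4 calls held without any 1 array. In JEKO the transcription factor STAT5A rose by 0.51 ± 0.10 (adjusted p = 0.013) and the kinase JAK3 by 0.47 ± 0.088 (adjusted p = 0.0067). STAT5A lost its JEKO call without PT replicate 2 (0.13) or BR replicate 2 (0.17), and JAK3 without PT replicate 1 (0.058) or BR replicate 1 (0.077). STAT5A also gave the smallest of the called falls in HBL2, by 0.28 (adjusted p = 0.045), and is named there after its value was seen. That call was lost without any 1 HBL2 PT array, HBL2 BR replicates 1 or 2 or any 1 JEKO BR array (0.053 to 0.19). The HBL2 change minus the JEKO change for STAT5A was -0.78 ± 0.14 (adjusted p = 0.0017).

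Among 14 PIM substrates and partners, 3 rose and 1 fell in HBL2, against 4.91% and 6.86% of all genes. In JEKO 2 rose, against 2.56% of all genes. CDKN1A, the cell cycle inhibitor p21, fell by 0.37 ± 0.065 in HBL2 (SE, adjusted p = 9.68e-04, limma) and rose by 0.51 ± 0.079 in JEKO (adjusted p = 0.0018). Its group means were 1.39 in HBL2 BR, 1.76 in HBL2 PT, 1.73 in JEKO BR and 1.22 in JEKO PT. The HBL2 change minus the JEKO change was -0.88 ± 0.10 (adjusted p = 5.33e-05), and it held without any 1 array. The transcription factor MYB rose by 0.31 in HBL2 (adjusted p = 0.0045), also without any 1 array. EIF4B, counted above, and the phosphatase CDC25A (0.20, adjusted p = 0.048) were the other rises there. CDC25A lost its call when any 1 array except HBL2 PT replicate 1 was left out (0.054 to 0.15). In JEKO NFATC1, a factor of lymphocyte activation, rose by 0.45 (adjusted p = 0.019), a call lost without PT replicate 1 (0.24, with a value of 0.30) or BR replicate 2 (0.27). Its value was 0.028 when probe sets of the _x_at and _s_at types were left out.

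**Figure D4:**
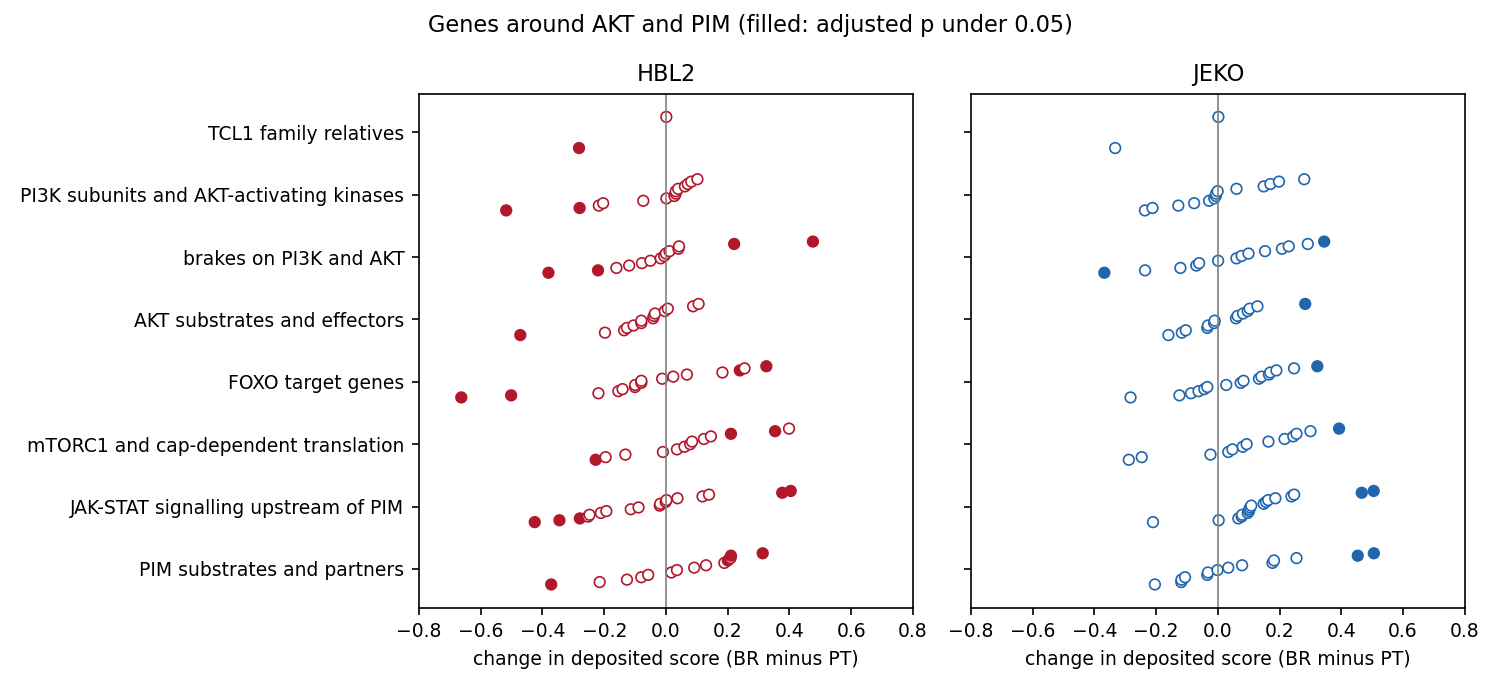
Change in deposited score, BR minus PT (horizontal axis, no unit), of each tested gene of the 8 lists (rows) in HBL2 and JEKO, with filled points at an adjusted p under 0.05. Called genes lie on both sides of 0 in HBL2 (10 higher, 13 lower) and mostly to the right in JEKO (8 higher, 1 lower).

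Cell type markers moved beside these genes. In HBL2 all 4 plasma cell markers were called higher (IRF4, SDC1, PRDM1 and XBP1), against 4.91% of all genes. XBP1 passed narrowly (adjusted p = 0.042, limma). The summed score of the 4 markers was 6.95 to 7.26 on BR arrays, against 5.46 to 5.81 on PT arrays. In JEKO only SDC1 was called higher, against 2.56% of all genes. The JEKO changes of IRF4 (0.25), PRDM1 (0.14) and XBP1 (0.25) were not called. The JEKO sums were 5.83 to 6.0 in BR, against 4.78 and 4.78 in PT. The 5 measured B cell markers summed to 10.2 to 11.0 in HBL2 BR, against 11.2 to 12.1 in HBL2 PT. Of these, CD79A and CD79B were called lower in HBL2, against 6.86% of all genes. The sums were 11.8 to 11.9 in JEKO BR, against 11.5 to 11.7 in JEKO PT. There CD22 was called higher, against 2.56% of all genes. Nothing is read from these marker counts, and the marker calls were not tried with single arrays left out. The part of these markers in the TCL1, AKT and PIM values was not tested. The 7 T and NK cell markers summed to 3.35 to 3.50 in HBL2 BR, against 3.54 to 3.94 in HBL2 PT, and to 3.79 to 4.05 in JEKO BR, against 3.71 to 3.92 in JEKO PT. Only 1 of these 7 passed the filter, and it was not called.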

How the data were processed

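Biotin-labelled RNA of 10 culture samples was measured on Affymetrix arrays. The authors deposited 1 score per probe set and array, for 54675 probe sets. MAS5 is named per the submitters' processing notes; what followed it is not given in the sources used here. All arrays hold the same set of scores, so a score depends on rank alone, and a common shift of the transcriptome would be hidden. Sample titles gave the groups and replicate numbers. The number of arrays limits the precision, and no detection calls were used here.

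Probe sets with 1 gene symbol in the platform annotation (41091) were kept if at or above the 50th percentile of their array on 2 or more arrays, and each gene was represented by its probe set of highest mean over all arrays. A linear model of 4 group means was fitted to the scores of 14529 genes (limma 3.58.1 and R 4.3.3, moderated variances that follow the mean score), with 6 residual degrees of freedom and a mean prior of 9.89. Tests were two-sided with Benjamini-Hochberg adjustment over all genes tested, and an adjusted p under 0.05 was called. The fit was tested on simulated data. The standard deviation stands beside means and the standard error beside changes. Promoters came from RefSeq tables of GRCh38.p14.

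The genes, the lists and the tests were chosen with earlier results of these data known. The text names the 7 genes, from each list the called genes of largest change (up to 4 a line), and MTCP1. It also names neighbours among the 5 nearest tested genes on each side of the TCL1 pair, and the 5 genes nearest in pattern to TCL1A and to PIM2. The number of probe sets was 2 for TCL1A, 7 for AKT2 and 1 for each other gene. Alternatives were other filters, variance models, probe set choices, scales, a control covariate, a replicate block and leaving out each array.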

Additional observations from a re-analysis of the deposited data

Results flagged for a closer look

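The lines differed in their changes for 8.71% of all genes (HBL2 change minus JEKO change, limma, adjusted p under 0.05). That difference was -1.56 for TCL1A, -1.02 for TCL1B and -0.37 for PIM2, which follow from results known when the genes were chosen and are a description. It was -0.88 for CDKN1A (adjusted p = 5.33e-05) and -0.78 for STAT5A (adjusted p = 0.0017), which were called in opposite directions in the lines and were singled out after their values were seen. Both passed in every alternative run for them (20 and 21). No group held enough arrays for a test of single outlying arrays.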

How the results depend on the processing

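The BR minus PT calls of PIM1 and PIM2 in HBL2 held in all 22 alternatives run for them. On the score scale the alternatives gave -2.06 to -1.80 for TCL1A and -1.69 to -1.55 for TCL1B in HBL2 and 0.69 to 0.72 for PIM2 in JEKO, as descriptions. Among the 7 genes, 3 called in JEKO became 1 with normal scores of the ranks and ran from 1 to 4 (1 without JEKO BR replicate 2) when 1 array was left out. The 5 called between HBL2 BR and JEKO BR became 3 without _x_at and _s_at probe sets, which are the sole ones of TCL1B and AKT1. On percentile ranks the JEKO calls of TCL1B (adjusted p 0.93) and PIM1 (0.76) and the PT difference of TCL1B (0.87) were lost. AKT1 passed in JEKO (0.019), and AKT1 (0.041) and PIM1 (0.0096) passed for the HBL2 change minus the JEKO change. TCL1A passed in JEKO with array weights (0.041), with the line fitted alone (0.0021) and with the beta-actin covariate (0.018). Among the 7 genes signs turned only for values that were not called. With array weights PIM3 was -0.030 in HBL2 and 0.048 for HBL2 PT minus JEKO PT. Without _x_at and _s_at probe sets AKT2 was -0.14 in JEKO, 0.10 for the HBL2 change minus the JEKO change, 0.012 for HBL2 BR minus JEKO BR and -0.091 for HBL2 PT minus JEKO PT, PPP2R1B was 0.21 in JEKO, and with the median over probe sets TCL6 was 0.037 in JEKO. With the beta-actin covariate PIM2 was 0.0082 for HBL2 PT minus JEKO PT. Leaving out 1 array gave AKT1 in HBL2 -0.15 to 0.028 and PIM3 -0.12 to 0.15, and in JEKO AKT2 -0.083 to 0.18 and PIM3 -0.23 to 0.11. It gave PIM3 -0.065 to 0.27 for the HBL2 change minus the JEKO change and -0.084 to 0.25 for HBL2 BR minus JEKO BR. For HBL2 PT minus JEKO PT it gave AKT2 -0.080 to 0.18, PIM2 -0.060 to 0.049 and PIM3 -0.13 to 0.14. The cause of these shifts was not tested. Deviations of same-numbered BR and PT arrays from their group means had correlations of 0.0075 to 0.14 in HBL2 and 0.0781 in JEKO. Differently numbered HBL2 arrays gave -0.202 to 0.155. The 2 JEKO arrays of a group mirror each other around their mean, so JEKO gives a single value. With 3 or 2 arrays a group, this check cannot decide whether same-numbered arrays were paired. With a replicate block the genes called among the 7 were 4 in HBL2, 3 in JEKO and 3 for the difference of changes, as without it, and it ended the HBL2 calls of IL7R (0.059) and STAT5A (0.0501). The 1711 genes called in HBL2 became 2684 with array weights and 1118 without HBL2 BR replicate 2. The 622 called in JEKO became 389 without the trend, 1032 with array weights, 942 without HBL2 PT replicate 3 and 120 to 281 without a JEKO array. The 1266 called for the difference of changes became 1948 with array weights, 696 or 832 without a JEKO PT array and 658 without JEKO BR replicate 2. The 3361 called between PT cells became 2015 or 1974 without a JEKO PT array, and the 4083 between BR cells 2444 without JEKO BR replicate 2. No block was fitted for the comparisons of PT cells or of BR cells between lines, because the block holds the line, and the fit of each line alone cannot give comparisons between lines. A group left with 1 JEKO array was assumed to vary like the others. Scores measure messenger RNA ranks, not protein or kinase activity.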
